A study of Mus musculus with 2 samples.

Results

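MHC class II genes and their master regulator were followed through endothelial cells (ECs) of the mouse lung. The 7 members were Cd74, H2-Aa, H2-Ab1, H2-Eb1, H2-DMa, H2-DMb1 and Ciita, matched by gene symbol, and all 7 were among the 31053 genes of both count matrices. They were chosen by their role in antigen presentation with their levels in these libraries already known, so all levels below are a description and none was tested. The data were 2 droplet single-cell RNA libraries of lung from C57/B6 mice aged 2 to 4 months, 1 from normoxia and 1 after 3 weeks of hypoxia at 10% oxygen. Both cell suspensions had been depleted with beads of CD45+ cells, which are leukocytes, and of CD326+ cells, which are epithelial. The study's text speaks of several wild-type animals exposed to hypoxia, and the labels do not say how many animals each library holds. With 1 library per condition, a difference between the libraries cannot be told apart from a difference between animals or preparations, and no p-value is given. All intervals are 95% intervals that cover counting error only, so they do not hold the spread between mice. They are exact, except for the ratio with the subtype makeup held fixed, whose interval is approximate.

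MHC class II molecules display peptides from proteins taken up by the cell to CD4+ T cells. An alpha and a beta chain pair in the endoplasmic reticulum with the invariant chain, are led to endosomes, exchange a fragment of that chain for a peptide with the help of the H2-DM dimer, and move to the surface. CIITA is a coactivator that binds no DNA itself but joins RFX, CREB and NF-Y proteins at the X and Y boxes of class II promoters. Dendritic cells, B cells and macrophages make class II constantly, alveolar type 2 cells also carry it, and interferon gamma brings it out in ECs.

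The proximal promoters below are shown because they hold the letters through which class II genes are known to be switched together. The windows are the 250 bases before the start site from RefSeq (build GRCm38.p6), which covered 4 of the 7 members. Capitals mark matches, on either strand, to the X box (AGNAACNGA), the Y box (TGATTGG) and the cAMP response element (TGACGTCA), 3 motifs that do not overlap one another in these windows. H2-Aa lies at chr17:34287824-34288073 on the minus strand, H2-Eb1 at chr17:34305617-34305866 and H2-DMb1 at chr17:34152941-34153190, both on the plus strand.
H2-Aa: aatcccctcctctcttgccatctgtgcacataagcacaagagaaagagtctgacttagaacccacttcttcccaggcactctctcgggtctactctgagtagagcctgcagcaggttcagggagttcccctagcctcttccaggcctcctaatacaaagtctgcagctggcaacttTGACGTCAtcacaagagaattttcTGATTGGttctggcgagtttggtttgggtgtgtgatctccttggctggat
H2-Eb1: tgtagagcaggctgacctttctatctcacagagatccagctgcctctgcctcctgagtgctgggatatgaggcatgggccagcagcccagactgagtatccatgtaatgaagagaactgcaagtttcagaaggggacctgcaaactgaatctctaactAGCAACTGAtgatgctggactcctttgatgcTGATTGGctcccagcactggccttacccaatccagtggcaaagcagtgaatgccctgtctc
H2-DMb1: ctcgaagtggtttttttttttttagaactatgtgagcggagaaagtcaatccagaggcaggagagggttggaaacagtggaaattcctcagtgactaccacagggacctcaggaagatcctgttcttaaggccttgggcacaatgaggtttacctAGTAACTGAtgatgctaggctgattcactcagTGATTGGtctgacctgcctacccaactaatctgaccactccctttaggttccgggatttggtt
In H2-Eb1 the X box begins 92 bases and the Y box 61 bases before the start, and in H2-DMb1 they begin 95 and 63 bases before it. These distances are to the RefSeq start. For H2-DMb1 the gene position below comes from another annotation with an earlier start, and both matches lie past that start. H2-Aa holds the Y box 50 bases and the cAMP response element 74 bases before the start, with no match to these X box letters. Both windows of H2-DMa, chr17:34122582-34122831 and chr17:34125268-34125517 on the plus strand, held none of the 3 motifs. They lie inside the gene as placed below, so the bases before that gene start were not examined. Of 32851 windows of this length over all genes, 4.42% hold the X box letters, 7.23% the Y box letters, 1.55% the cAMP response element, and 0.259% the X and Y boxes together. A match is a description of letters, and binding was not measured here. The genes themselves lie at chr17:34282744-34287823 (H2-Aa), chr17:34257689-34269419 (H2-Ab1), chr17:34305867-34316674 (H2-Eb1), chr17:34119541-34139101 (H2-DMa), chr17:34153072-34160230 (H2-DMb1) and chr16:10480059-10528418 (Ciita) in GRCm38.

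After filtering, 1348 normoxia and 689 hypoxia cells were kept, with a median of 3453 and 2224 UMIs (unique molecular identifiers, counted transcripts) per cell. No barcode was shared between the libraries among kept cells. Clustering without the 7 members gave 28 clusters, of which 14 carried EC markers and held 770 normoxia and 459 hypoxia cells. By markers these were general capillary (gCap-like), aerocyte (aCap-like), arterial, venous and lymphatic EC-like cells, and other EC-like cells that met no subtype rule. Another 26.0% and 28.7% of the kept cells stayed unnamed, in which the members summed to 1510 and 6416 UMIs per 1000000 UMIs. The subtypes, named by cluster, were spread unevenly over the libraries. Most hypoxia ECs were other EC-like, and 179 of them lay in a cluster led by Cxcl9 and Ntrk2, to which normoxia gave 9 cells. Of the 188 Cxcl9 UMIs in its hypoxia cells, 98.9% came from 1 cell. This Ntrk2-led cluster carried 8 of 8 gCap markers but met no subtype rule, and Cd74 and H2-Ab1 were among its 10 leading genes. Leading genes were ranked against all other cells of both libraries, so genes higher in hypoxia can lead a mostly hypoxia cluster. Against hypoxia gCap-like cells Cd74 stood at 1.03-fold (0.973 to 1.10) and H2-Ab1 at 1.18-fold (1.04 to 1.34) in this cluster. Another cluster of other EC-like cells, 24 and 2 cells, was led among ECs by the fibroblast genes Inmt and Mfap4. A cluster held mostly by 1 library may reflect that library and not a cell type.

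In EC-like cells the 7 genes together stood 4-fold higher in the hypoxia library. Their summed level was 2227 CPM (UMIs per 1000000 UMIs of the class; 2177 to 2277) in normoxia and 9447 (9309 to 9588) in hypoxia, a ratio of 4.24 (4.13 to 4.36). Each of the 7 was at least 2-fold higher, where 2.04% of the 8559 genes with 50 or more UMIs in both libraries together reached that ratio. The median ratio was 3.80 over the members and 1.02 over all these genes. The hypoxia level was higher in all 14 EC-like clusters, each with cells of both libraries, with ratios from 2.00 to 18.5. Per cell, the normoxia median was 1649 CPM with quartiles of 267 and 3640, and the hypoxia median was 9309 CPM with quartiles of 4286 and 13762. The lower hypoxia quartile was thus above the upper normoxia quartile. The 5 highest cells held 4.31% and 4.78% of the members' UMIs.

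**Figure D1:**
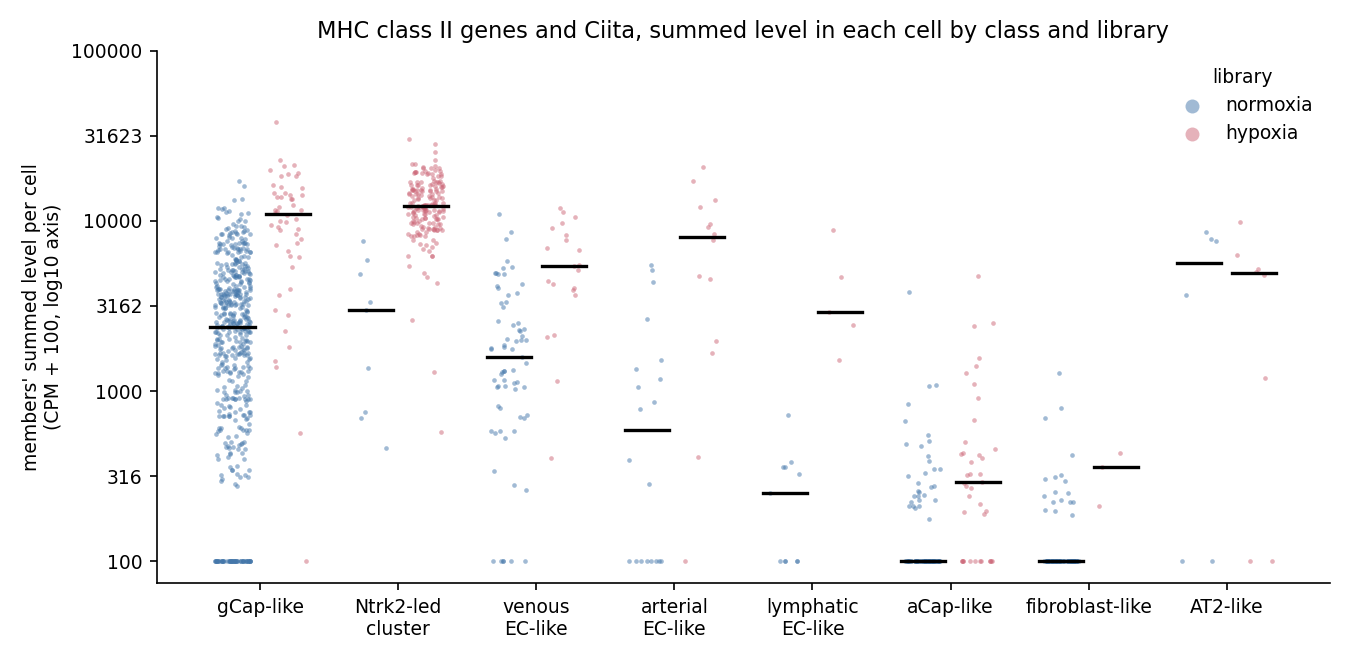
Summed level of the 7 genes in each cell (CPM plus 100, log10 axis) by class, with 1 point per cell, blue for normoxia and red for hypoxia, and a black line at the median. Points at 100 are cells with no UMI of the 7 genes. The hypoxia median lies above the normoxia median in each of the 6 endothelial classes drawn, and most normoxia aCap-like and fibroblast-like cells sit at 100.

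In gCap-like cells the genes of every role stood higher in hypoxia. gCap cells are the general capillary ECs that carry Gpihbp1 and Aplnr. Normoxia gave 518 of them, mainly from 4 clusters led by Gm16486, Hey1, Fabp4 and AC167229.1, and hypoxia 52, of which 24 were in the Fabp4-led cluster. Cd74, the invariant chain, was at 1381 CPM (1330.5 to 1434) in normoxia and 6404 (6048 to 6774) in hypoxia, the highest of the 7 in both. Its ratio of 4.64 (4.33 to 4.96) lay above the intervals of the 3 classical chain genes. H2-Aa, the A alpha chain, went from 471 to 1619 CPM, 3.44-fold (3.01 to 3.91). H2-Ab1, the A beta chain that pairs with it, went from 551 to 1556 CPM, 2.82-fold (2.47 to 3.21). H2-Ab1 thus stood above H2-Aa in normoxia, and in hypoxia their intervals overlap. H2-Eb1 encodes the E beta chain, whose alpha partner is defective in C57BL/6 mice, and it stood at 363 and 992 CPM, 2.73-fold (2.32 to 3.21).

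The peptide editor genes were at lower levels and moved by a like ratio. H2-DMa stood at 99.1 CPM (85.8 to 114) in normoxia and 359 (278 to 455) in hypoxia, 3.62-fold (2.71 to 4.79). H2-DMb1 stood at 104 and 322 CPM, 3.11-fold (2.30 to 4.15). Its near-identical neighbor H2-DMb2 had 1 UMI in all EC-like cells. How reads that fit both copies were counted is not known here, so the H2-DMb1 level is uncertain. Ciita, the coactivator, was the lowest, at 44.1 CPM (35.4 to 54.3) and 190 (133 to 263), 4.31-fold (2.84 to 6.41). Over all genes with 50 or more UMIs in gCap-like cells, 3.39% of 6077 reached 2-fold, against 7 of 7 members, and the medians were 0.988 and 3.44. The summed level was 3013 CPM (2938 to 3090) in normoxia and 11441 (10965 to 11933) in hypoxia, 3.80-fold (3.61 to 3.99). By gCap-like cluster the ratio ran from 2.00 in the AC167229.1-led to 4.51 in the Hey1-led cluster, with 3.76 in the Fabp4-led one. The makeup by cluster within gCap-like cells was not held fixed. When cells were gated one by one on EC markers instead of clusters, 529 normoxia and 248 hypoxia cells were gCap-like and the ratio was 3.97 (3.84 to 4.12).

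**Figure D2:**
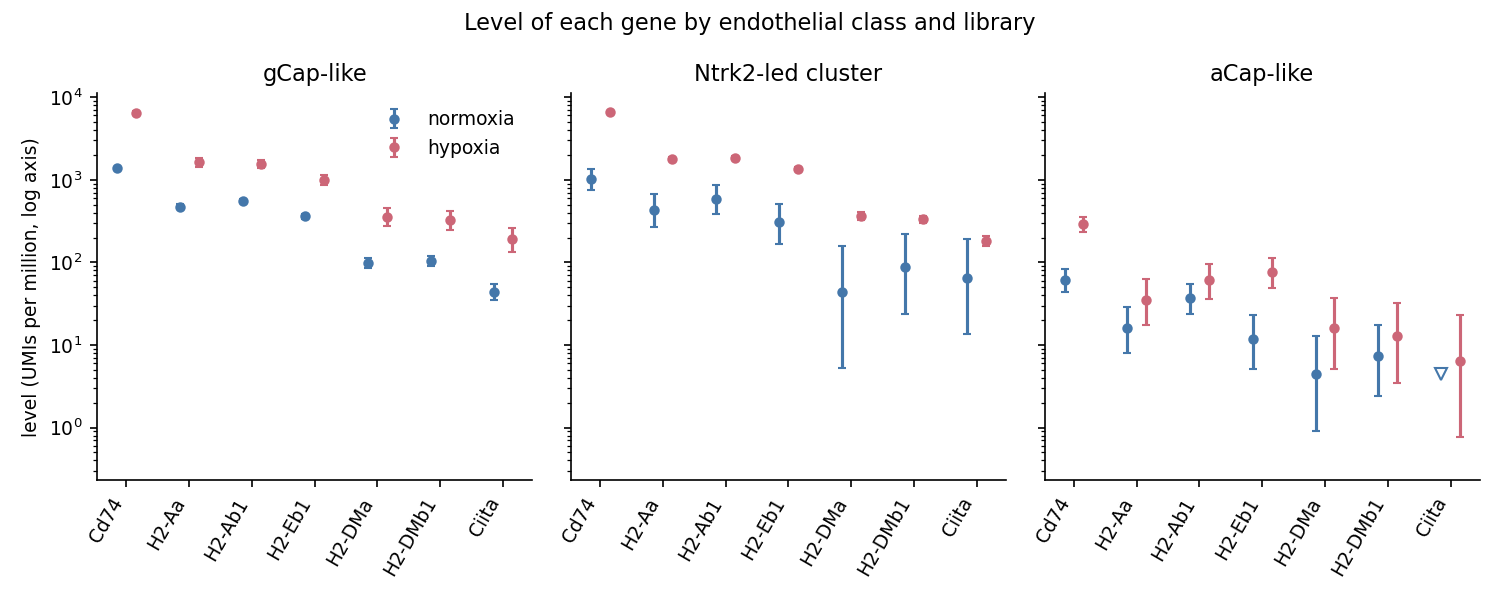
Level of each gene (CPM, log axis) in gCap-like cells, the Ntrk2-led cluster and aCap-like cells, with exact 95% Poisson intervals. The open triangle marks a gene with no UMI, Ciita in normoxia aCap-like cells, drawn at the level of 3 UMIs. In gCap-like cells the hypoxia point lies above the normoxia point for all 7 genes, and in the same library the aCap-like point lies below the gCap-like point for each gene.

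aCap-like cells had the least class II of the EC classes, with lymphatic EC-like cells not told apart from them in normoxia. Aerocytes are the large capillary ECs that cover gas exchange surfaces and carry Car4 and Ednrb. Their summed level was 137 CPM (111 to 168) in 100 normoxia cells and 495 CPM (421 to 580) in 40 hypoxia cells. Set against gCap-like cells of the same library this was a ratio of 0.0455 (0.0367 to 0.0559) in normoxia and 0.0433 (0.0366 to 0.0510) in hypoxia. The gCap-like level was at least 2-fold above the aCap-like level for 7 of 7 members in normoxia, as for 10.5% of 6760 genes. In hypoxia this held for 6 of 6 members with 50 or more UMIs, as for 10.2% of 1963 genes. The lower members passed this limit through their gCap-like UMIs. In aCap-like cells H2-DMa had 3 and H2-DMb1 5 UMIs in normoxia, and 5 and 4 in hypoxia. Their outcome largely followed from the limit, so these counts give no support of their own. Ciita had no UMI in normoxia aCap-like cells, where 3 UMIs would be 4.43 CPM, and 2 UMIs in hypoxia.

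Within aCap-like cells the hypoxia to normoxia ratio was 3.61 (2.78 to 4.72), and few cells carried it. The highest cell held 35.5% of the members' UMIs in normoxia and 36.5% in hypoxia. Without that cell in each library the levels were 89.7 and 327 CPM, and the ratios to gCap-like cells became 0.0298 and 0.0286. Cd74 stood at 60.5 and 289 CPM, 4.78-fold (3.27 to 7.09), and H2-Eb1 at 11.8 and 76.2 CPM, 6.46-fold (2.81 to 16.6). Without the highest cell of each library these ratios were 4.93 (3.06 to 8.16) for Cd74 and 3.87 (1.52 to 10.6) for H2-Eb1. For the other 5 members the interval of the ratio included 1. The gate placed the aCap to gCap ratio at 0.0447 in normoxia and 0.104 in hypoxia, so the size of the hypoxia gap depended on how aCap cells were chosen. By the gate the aCap ratio of hypoxia to normoxia was 9.21 (6.72 to 12.9), and with cells of up to 6000 genes allowed it was 6.31 and the hypoxia ratio to gCap-like cells 0.139. Without cells marked by the doublet caller, which took the highest normoxia cell, it was 5.52.

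The venous and arterial classes lay between gCap-like and aCap-like cells. Venous EC-like cells stood at 2233 CPM (2077 to 2397) in normoxia and 5076 (4621 to 5564) in hypoxia, 2.27-fold (2.02 to 2.56) over 69 and 21 cells. Arterial EC-like cells stood at 913 CPM (746 to 1107) and 7546 (6884 to 8255), 8.26-fold (6.67 to 10.3) over 20 and 14 cells. The order of these classes was reversed between the libraries: venous stood 2.44-fold (1.99 to 3.03) above arterial in normoxia and at 0.673 (0.590 to 0.766) of it in hypoxia. Ciita had no UMI in arterial cells of normoxia, where 3 UMIs would be 26.3 CPM, and stood at 142 CPM in hypoxia. Lymphatic EC-like cells had 7 UMIs of the members in 11 normoxia cells and 24 in 5 hypoxia cells, which is 167 CPM (67.3 to 345) and 3096 CPM (1984 to 4607).

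The Ntrk2-led cluster stood above each named EC subtype in hypoxia, at 12490 CPM (12271 to 12712) over 179 cells. That was 1.09-fold (1.04 to 1.14) the level of gCap-like cells in the same library. Its 9 normoxia cells stood at 2545 CPM (2105 to 3050), an interval that overlaps those of gCap-like and venous cells. Single clusters reached higher hypoxia levels, 13127 CPM (12324 to 13969) in 68 other EC-like cells and 14676 (13065 to 16432) in 9 gCap-like cells of the Hey1-led cluster. H2-DMa, Cd74, H2-Eb1 and H2-Aa were among the 10 leading genes of the former, ranked over both libraries. It stood at 5770 CPM (4322 to 7548) in 10 normoxia cells. Its leading genes among ECs also included the epithelial genes Sftpc and Scgb1a1. The 68 hypoxia cells were shallow, with 75721 UMIs together, and the part of epithelial RNA in their level was not tested. The gCap-like cluster led by the interferon gene Ifit1 stood at 4331 CPM (3786 to 4932) in 15 normoxia cells and 12132 (10683 to 13723) in 8 hypoxia cells. Among the named subtypes the normoxia order was gCap-like, venous and arterial, then lymphatic and aCap-like with overlapping intervals. In hypoxia it was the Ntrk2-led cluster, gCap-like, arterial, venous, lymphatic and aCap-like, with no overlap of neighboring intervals.

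Higher levels in hypoxia were also seen in some classes outside ECs, and not in others. Over the named non-EC cells together the ratio was 4.81 (4.30 to 5.38), from 791 CPM in 227 cells to 3808 CPM in 32. The makeup of this pool also differed. AT2-like cells gave 291 of its 1005 members' UMIs in normoxia and 352 of its 458 in hypoxia. Their own ratio was 0.979 (0.835 to 1.15), and that of the leukocyte cluster was 1.00 (0.731 to 1.35). The leukocyte ratio does not set like cells side by side. In that cluster Igkc had 18590 UMIs in normoxia and none in hypoxia, and Lyz2 stood at 366 and 7881 CPM. AT1-like cells stood at 824 and 1853 CPM, 2.25-fold (1.47 to 3.37), platelet-like cells at 1090 and 3778 CPM, 3.47-fold (1.92 to 6.06), and fibroblast-like cells at 49.6 and 220 CPM, 4.44-fold (1.36 to 11.4). An unnamed cluster led by the airway genes Cbr2 and Fam183b stood at 248 and 2773 CPM, 11.2-fold (7.63 to 16.9), over 94 and 32 cells. The hypoxia cells of most of these classes were few, at 12 AT1-like, 5 platelet-like and 3 fibroblast-like cells, the last with 5 UMIs of the members. Of 8 gCap markers, 5 were detected in the platelet-like cluster and 4 in the AT1-like cluster. The part of free RNA in these values and in those of ECs was not tested.

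**Figure D3:**
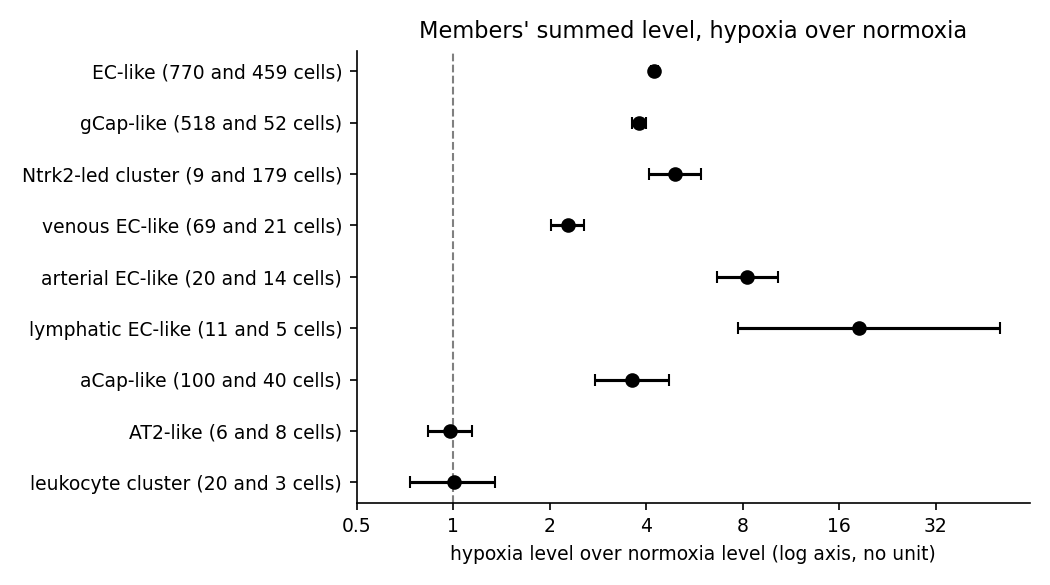
Ratio of the summed level of the 7 genes, hypoxia over normoxia (log axis), for each class, with exact 95% counting intervals and the normoxia and hypoxia cell numbers in the labels. EC classes range from 2.27 in venous to 18.5 in lymphatic cells, while the intervals of AT2-like cells and the leukocyte cluster include the dashed line at 1. The leukocyte cluster holds unlike cells in the normoxia and hypoxia libraries. Of the classes not drawn, AT1-like, platelet-like and fibroblast-like cells were higher in hypoxia, over 12, 5 and 3 hypoxia cells.

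The subtype makeup by cluster names differed sharply between the libraries, and the difference in level was about as large with that makeup held fixed. gCap-like cells made up 67.3% of normoxia and 11.3% of hypoxia EC-like cells, and other EC-like cells 6.75% and 71.2%. By the marker gate the makeup was much closer. There gCap-like cells were 529 of 630 normoxia and 248 of 303 hypoxia ECs, and aCap-like cells 90 and 53. The fall in the gCap-like share thus depended on how the cells were named. The values that follow use the cluster names. The members' UMIs came from gCap-like cells for 79.2% in normoxia and from other EC-like cells for 81.4% in hypoxia. When the hypoxia level of each subtype was weighted by the normoxia makeup, by UMIs, the expected level was 8464 CPM, 3.80-fold (3.65 to 3.96) above normoxia. When normoxia levels were weighted by the hypoxia makeup, the level was 2061 CPM, 0.926 of the observed normoxia level. This treats gCap-like and other EC-like cells as 1 subtype each, although their clusters are filled unevenly by the 2 libraries. Leaving out the Ntrk2-led cluster brought the EC-like hypoxia level to 6028 CPM and the ratio to 2.71 (2.62 to 2.81), while the ratio at the normoxia makeup was then 3.72.

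**Figure D4:**
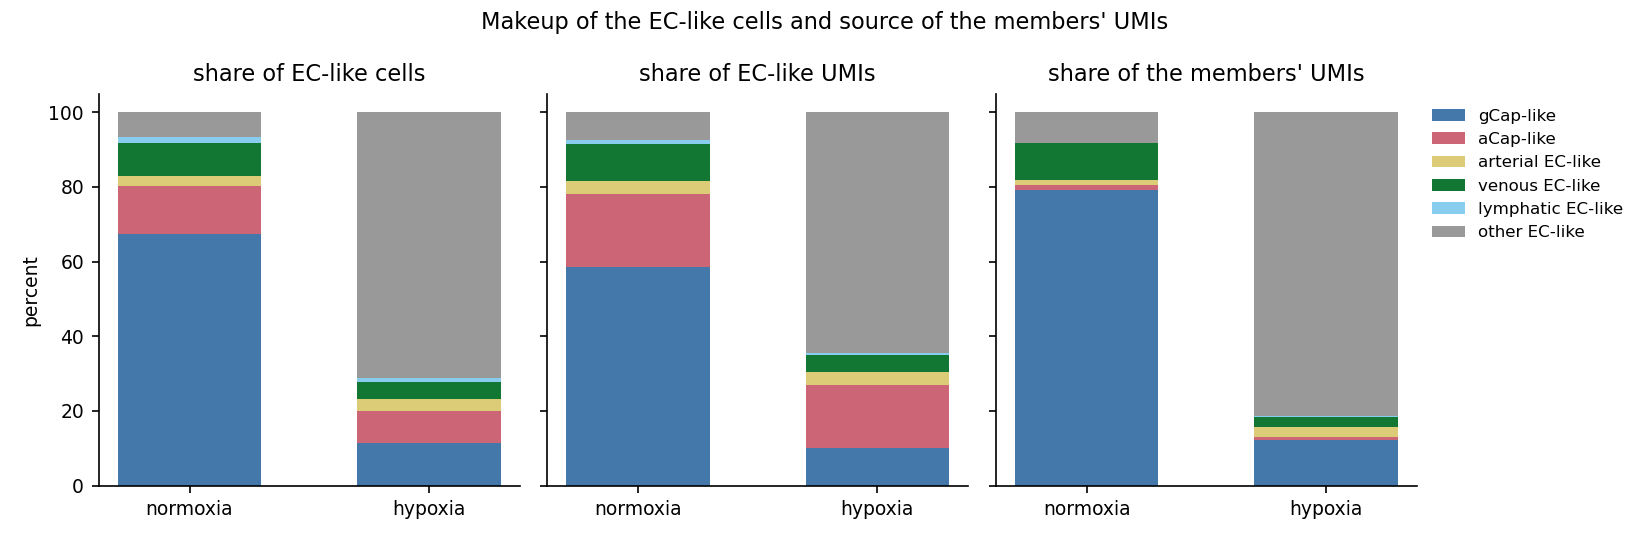
Stacked shares (percent) of the EC-like cells, of all their UMIs and of the members' UMIs by subtype, 1 bar per library. Subtypes are named by cluster, and the marker gate gave a closer makeup. Other EC-like cells fill 71.2% of the hypoxia ECs and give 81.4% of its class II UMIs, and aCap-like cells hold 19.7% of the normoxia EC UMIs but 1.21% of the members' UMIs.

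More hypoxia ECs carried the transcripts at all. A UMI of at least 1 member was seen in 80.6% of normoxia and 95.9% of hypoxia EC-like cells, at median depths of 4127 and 3533 UMIs. To compare cells at 1 depth, each was thinned to 1000 UMIs, which left out 36 normoxia and 76 hypoxia EC-like cells below it. The share was then 65.9% (62.4 to 69.4) in normoxia and 91.1% (87.8 to 93.8) in hypoxia. In gCap-like cells it was 76.2% (72.2 to 79.8) of 499 and 96.0% (86.3 to 99.5) of 50, and in the Ntrk2-led cluster 99.4% (96.9 to 99.99) of 177 hypoxia cells. Among aCap-like cells it was 11.1% (5.7 to 19.0) of 99 and 33.3% (19.1 to 50.2) of 39.

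Free RNA in droplets can add to such shares, and its part was not tested. As a low reference, fibroblast-like cells had a UMI of a member in 7.2% (3.0 to 14.3) of 97 normoxia cells. Their median depth was 7055 UMIs before thinning, when the share was 18.6%. Of 16 SMC-like (smooth muscle) cells 2 had a UMI before thinning and none after it, an exact upper limit of 20.6%. aCap-like cells had a median depth of 6759 UMIs and a share of 31.0% before thinning. The interval of the thinned normoxia aCap-like share overlaps that of fibroblast-like cells, while the summed aCap-like level was 2.77-fold (1.86 to 4.21) theirs. That share is not read as expression here, and how much of it is free RNA was not tested. Hypoxia held 3 fibroblast-like cells, 1 pericyte-like cell and no SMC-like cell. No such reference can thus be set there, and the hypoxia aCap-like share is not read as expression either. The 3 fibroblast-like cells summed to 220 CPM (71.5 to 514), and the aCap-like level was 2.25-fold (0.944 to 7.03) theirs, an interval that holds 1. AT1-like cells, at 1853 CPM, and platelet-like cells, at 3778 CPM, stood above the aCap-like 495 CPM in hypoxia.

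The members differed in how often they were seen. In thinned gCap-like cells Cd74 was found in 57.1% of normoxia and 90.0% of hypoxia cells. H2-Aa was in 30.7% and 62.0%, H2-Ab1 in 32.7% and 78.0%, and H2-Eb1 in 28.3% and 56.0%. The editors were rarer, with H2-DMa in 11.4% and 36.0% and H2-DMb1 in 9.4% and 30.0%. Ciita was found in 4.4% and 12.0%. All 7 were in a larger share of the hypoxia cells.

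The transcripts were seen together in the same cells. Of the 7, thinned gCap-like cells carried a mean of 1.7 in normoxia and 3.6 in hypoxia, and at least 4 were present in 11.8% of normoxia cells and in 30 of 50 hypoxia cells. In the hypoxia Ntrk2-led cluster the mean was 4.0, and 68.4% had at least 4. Of aCap-like cells, 1 of 99 and 3 of 39 carried 2 or more. Such counts also rise with the share of cells that carry each gene by itself. The counts that unlinked genes would give were not computed, so these do not show pairing. Among EC-like cells with H2-Aa, Cd74 was present in 73.9% (67.0 to 80.1) of 188 normoxia and 97.8% (95.04 to 99.3) of 232 hypoxia cells, against 37.9% and 68.9% of cells without H2-Aa.

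This count mixes rich and poor subtypes, so the pairing was also read within gCap-like cells. There Cd74 was present in 79.1% (71.8 to 85.2) of normoxia cells with H2-Aa and in 47.4% (42.0 to 52.8) of those without. H2-Ab1, which forms the A dimer with H2-Aa, was in 45.8% (37.7 to 54.0) and 26.9% (22.3 to 31.9). H2-Eb1 was in 41.8% (33.9 to 50.1) and 22.3% (18.0 to 27.0). For H2-DMb1 the shares were 11.8% (7.1 to 18.0) and 8.4% (5.7 to 11.8), whose intervals overlap. In the 50 hypoxia gCap-like cells the intervals with and without H2-Aa overlap for all 6 other members.

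**Figure D5:**
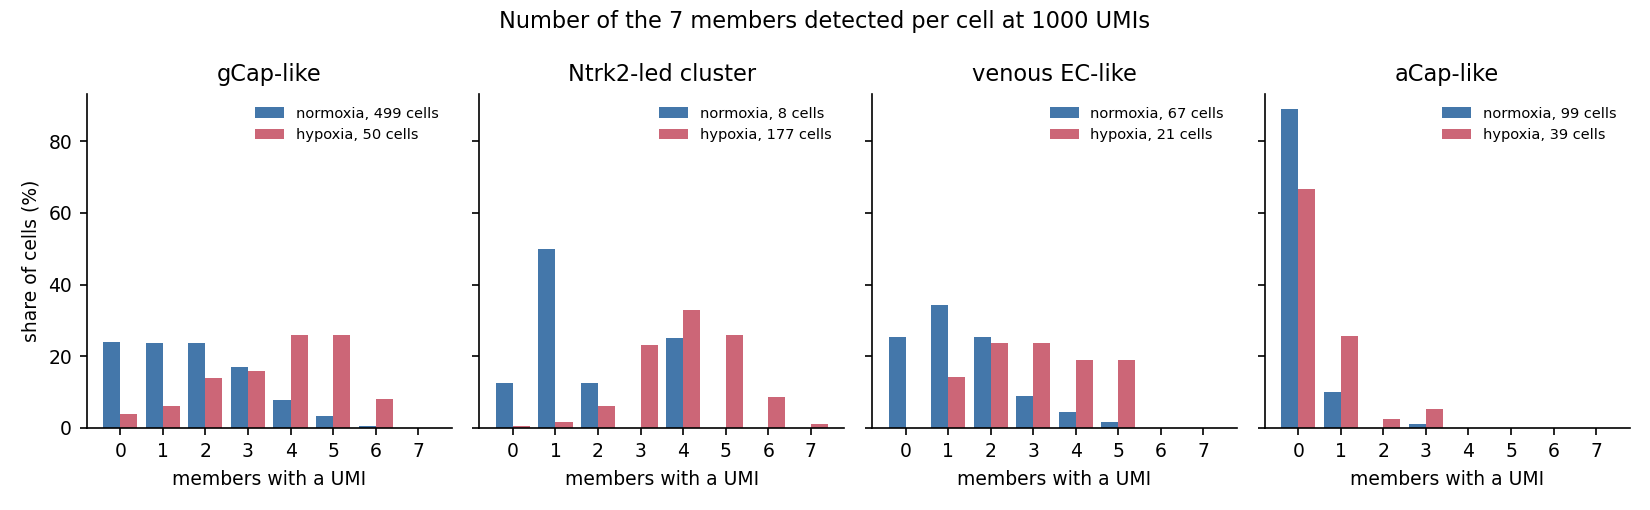
Share of cells (percent) by the number of the 7 members with a UMI after thinning to 1000 UMIs, in 4 EC classes, blue for normoxia and red for hypoxia, with cell numbers in the legends. gCap-like cells peak at 0 to 2 members in normoxia and at 4 to 5 in hypoxia, and 88.9% and 66.7% of aCap-like cells have none.

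Cells with a Ciita UMI were richer in the other 6 members in some classes and not in others. Before thinning it was found in 70 of 518 normoxia and 20 of 52 hypoxia gCap-like cells. The other 6 members stood at 3806 CPM in the normoxia cells with Ciita and 2824 CPM in those without, a ratio of 1.35 (1.26 to 1.44). In hypoxia they stood at 11165 and 11342 CPM, a ratio of 0.98 (0.90 to 1.07). The same held in the hypoxia Ntrk2-led cluster, at 0.99 (0.96 to 1.03) over 92 cells with and 87 without. In venous EC-like cells of normoxia the ratio was 0.44 (0.34 to 0.57), with Ciita in 8 cells. Over all EC-like cells, where subtypes mix, it was 1.67 (1.57 to 1.77) in normoxia and 1.46 (1.41 to 1.50) in hypoxia, and the hypoxia cells with Ciita were deeper, at a median of 5293 against 2605 UMIs. In thinned normoxia gCap-like cells H2-Aa was in 22.7% (7.8 to 45.4) of the 22 cells with Ciita and 31.0% (26.9 to 35.4) of those without, so no link of this pair was detectable at this depth.

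The mix of class II transcripts also differed between libraries, by the share taken by the invariant chain. A UMI marks 1 captured 3' end whatever the transcript's length, so shares of UMIs can be set side by side. Cd74 gave 45.8% (44.6 to 47.1) of the members' UMIs in normoxia gCap-like cells and 56.0% (53.9 to 58.1) in hypoxia. In all EC-like cells it gave 45.4% and 53.7%. H2-Ab1 went the other way in gCap-like cells, from 18.3% to 13.6%, and H2-Eb1 from 12.0% to 8.7%. For H2-Aa, at 15.6% and 14.2%, and for H2-DMa, H2-DMb1 and Ciita the intervals of the 2 libraries overlap.

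Most other genes of the class II machinery were not higher in hypoxia. Of 27 genes listed for the pathway, 24 were in the matrices, and 16 of these had 20 or more UMIs in EC-like cells. Of the 16, 2 stood at least 2-fold higher in hypoxia and none at least 2-fold lower, with a median ratio of 0.93. The interval lay above 1 for 4 and below 1 for 4. The DNA-binding partners of CIITA stood at ratios of 1.16 for Rfx5, 1.15 for Rfxap and 0.81 for Rfxank, of 0.60, 0.93 and 0.83 for the NF-Y subunits Nfya, Nfyb and Nfyc, and of 0.76 for Creb1. The proteases that trim the invariant chain and its cargo stood at 0.68 for Ctsl, 0.94 for Ctsb and 0.60 for Lgmn, and Sppl2a, which cleaves the invariant chain stub in the membrane, at 0.89. Ctss, the protease that trims the invariant chain in dendritic and B cells, had 3 UMIs and 2. March8, a ubiquitin ligase that removes class II from the surface, stood at 1.37.

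The 2 higher genes were H2-Ob, a chain of the H2-DM inhibitor H2-O, with 7 and 24 UMIs, 6.31-fold (2.64 to 17.4), and Cd274, the checkpoint ligand PD-L1, with 51 and 58 UMIs, 2.09-fold (1.41 to 3.11). Of the 24 hypoxia UMIs of H2-Ob 22 came from the Ntrk2-led cluster, while gCap-like cells had 5 UMIs in normoxia and none in hypoxia. H2-Oa, the partner chain of H2-Ob, had 1 UMI and none. The costimulatory receptor Cd40 stood at 1.95 and the ligand Icosl at 1.45. Cd80 and Cd86, which supply the second signal to T cells, had no UMI in any EC-like cell, nor had Pdcd1lg2 and March1. In gCap-like cells 13 of the genes had 20 or more UMIs, with a median ratio of 0.82, and Cd274 alone was above 2-fold, at 2.56 (0.86 to 6.38).

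Genes of the interferon gamma axis moved in part. In gCap-like cells 18 of 19 had 20 or more UMIs, the median ratio was 1.16, and 3 stood at least 2-fold higher. These were Igtp, an immunity-related GTPase, at 4.31 (3.03 to 6.06), Gbp4, a guanylate-binding protein, at 2.92 (2.25 to 3.77), and Tap1, the class I peptide transporter, at 2.15 (1.48 to 3.05). The receptor chain Ifngr1 stood at 1.84 (1.47 to 2.28) and the factor Irf1 at 1.02 (0.82 to 1.24). Cxcl10 had 27 UMIs in normoxia and none in hypoxia, where the interval of the ratio reaches 1.56. In all EC-like cells 4 of the 19 stood at least 2-fold higher (Igtp, Ifngr1, Gbp4 and Cxcl9) and 1 lower (Irf8), with a median of 1.42. Of 8559 genes with 50 or more UMIs there, 2.04% were at least 2-fold higher. The interval lay above 1 for 11 of the 19 and below 1 for 4. These 4 were Irf8 at 0.32, Socs1 at 0.51, Irf1 at 0.58 (0.53 to 0.64) and Jak1 at 0.83. Cxcl9 had no UMI in normoxia ECs and 188 in hypoxia, of which 98.9% came from 1 cell. For the class I genes the median ratio in gCap-like cells was 1.32 over 9 genes, of which Tap1 alone reached 2-fold, with B2m at 1.32, H2-K1 at 1.29 and H2-D1 at 1.32. The members' median was 3.44 in the same cells.

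Leukocytes, some of which make class II constantly, were a small presence among the named cells of both libraries. In EC-like cells the 18 leukocyte transcripts summed to 66.4 CPM (58.1 to 75.6) in normoxia and 35.2 (27.3 to 44.8) in hypoxia. Most of this difference was Igkc, with 92 and 5 UMIs, while Lyz2, which AT2 cells also express, gave 40 of the 66 hypoxia UMIs and stood at 22.9 and 21.4 CPM. Ptprc, which encodes CD45, had 4 UMIs and 1, and Cd79b, Ms4a1, C1qb, Cd3e, Flt3 and Itgax had none in either library. In EC-like cells with no UMI of the list the members stood at 2301 CPM over 588 normoxia cells and 9608 CPM over 404 hypoxia cells, a ratio of 4.18. The 1 cluster of leukocytes held 20 and 3 cells, was led by Igkc, Igha, Jchain and Ccl4, and best matched the plasma cell markers. It stood at 3586 and 3603 CPM, and 1 normoxia cell there reached 126394 CPM. All Igkc UMIs of this cluster came from normoxia, so its levels in the libraries are not of like cells. AT2-like cells, the surfactant cells of the alveolus, stood at 6296 CPM (5593 to 7063) in 6 normoxia cells and 6161 (5534 to 6839) in 8 hypoxia cells. Their level was 2.09-fold that of gCap-like cells in normoxia and 0.538 of it in hypoxia. In each library 1 AT2-like cell gave a large part of these UMIs. After thinning, 3 of 6 normoxia and 2 of 5 hypoxia AT2-like cells had no member.

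The genes whose level most resembled that of the members were ranked over 15 points, each an EC-like cluster in 1 library with 20 or more cells, 9 from normoxia and 6 from hypoxia. Points of a library share its preparation and depth, so r is a description. Of 5594 genes with 50 or more UMIs in EC-like cells of each library, the first 5 were Fam181b (r = 0.95), Wfdc1 (0.93), Ifi47 (0.91), Mfhas1 (0.90) and Gbp2 (0.90). Fam181b stood at 30.7 CPM in normoxia and 103 in hypoxia ECs, and Wfdc1, a secreted protease inhibitor, at 80.3 and 277. Ifi47 and Gbp2 encode interferon-induced GTPases and stood at 105 and 163, and at 120 and 232 CPM. Among the members r with their own sum ran from 0.74 for H2-DMa to 0.995 for Cd74, and Ciita was at 0.87.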

How the data were processed

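Lungs were digested, depleted of CD45+ and CD326+ cells and run on the 10x Genomics 3' chemistry. Per the file headers the authors made the deposited UMI counts per gene and cell with Cell Ranger 6.1.2, and the submitters' processing notes name mm10 and Seurat. Total counts were 7630683 over 2223 barcodes for normoxia and 2685345 over 809 for hypoxia. The filter required 200 to 4000 detected genes and no more than 5% mitochondrial UMIs, which removed 875 and 120 cells. After scaling to 10000 UMIs and log transform, 2000 variable genes, 30 components and 15 neighbors gave Leiden clusters (scanpy 1.11.5, resolution 2), with the members left out of the variable genes. Clusters were named "-like" from fixed markers with at least 3 detected. After the data were seen, 5 ciliated cell genes were added to the airway list, and lymphatic markers were counted as EC markers. The members and gene lists were chosen with earlier results of these data known.

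Levels are UMIs summed over a class per 1000000 UMIs (CPM) with exact Poisson intervals. Ratios have conditional binomial intervals and shares Clopper-Pearson intervals (scipy 1.17.1). The ratio at the normoxia makeup has instead an interval from a normal approximation on the log scale. These cover counting error only, and cells of 1 library are not replicates, so no test was run. Scripts were tested on simulated data. Doublets were not removed. Scrublet marked 3 of 1348 and 0 of 689 cells, and removal was an alternative. Genes named were the 7 members, pathway genes with 20 UMIs or more in EC-like cells, and the 5 most alike by Pearson's r of log2(CPM + 1). Pathway genes below 20 UMIs (Ctss, H2-Oa, H2-DMb2, Cd80, Cd86, Pdcd1lg2 and March1) and genes of the interferon gamma, class I and leukocyte lists were named after their values were seen. Other settings tried were the cell filters, resolution, members in clustering, a marker gate, thinning depth, scaling and leaving out cells or clusters. Positions are from GRCm38.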

Additional observations from a re-analysis of the deposited data

Results flagged for a closer look

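The summed level of the 7 genes in AT2-like cells had a hypoxia to normoxia ratio of 0.979 (0.835 to 1.15), on the other side of 1 from the 4.24 of EC-like cells. It was singled out because the classes moved in opposite directions, but the interval holds 1, the class had 6 and 8 cells, 1 cell gave 63.6% of the normoxia UMIs and 48.9% of the hypoxia UMIs, and the difference between the classes was not tested.

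Cells outside the filters, part of which enter only the alternatives with wider limits, carried the same transcripts. The 875 cells removed from normoxia stood at 1946 CPM (1892 to 2002) and the 120 removed from hypoxia at 4191 CPM (3990 to 4399). Most were over the mitochondrial limit, 835 and 107 cells, at 2132 and 5236 CPM.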

How the results depend on the processing

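No paired analysis was possible because there is a single library on each side. The 115 recomputed values were ratios and shares, and a side of 1 applies to the ratios alone. No ratio changed its side of 1, and the values that left the counting interval of the reported value follow. The EC-like ratio was 3.97 with up to 6000 genes allowed, 3.88 by the marker gate, 3.91 as a mean over cells, 4.06 after median-ratio scaling and 2.71 without the Ntrk2-led cluster. At the normoxia makeup it was 4.21 with 10% mitochondrial UMIs, 3.46 at resolution 1 and 3.99 by the gate. The gCap-like ratio was 4.05 with 10% mitochondrial UMIs and 3.52 after median-ratio scaling, where the median of all genes shifted by 0.11 on the log2 scale. The aCap-like ratio was 6.31 with 6000 genes, 5.52 without Scrublet cells, 1 of which held the most members' UMIs of the normoxia aCap-like cells, 5.35 without cells with a leukocyte UMI and 9.21 by the gate. The aCap-like to gCap-like ratio in normoxia was 0.0655 with 10% mitochondrial UMIs, 0.0824 with 6000 genes, 0.0298 without Scrublet cells or without the highest cell and 0.0317 without cells with a leukocyte UMI. In hypoxia it was 0.0695 with 10% mitochondrial UMIs, 0.139 with 6000 genes, 0.104 by the gate and 0.0286 without the highest cell. The normoxia share of EC-like cells with a member was 62.2% with 10% mitochondrial UMIs, 75.3% at resolution 1, 50.5% at 500 UMIs and 75.8% at 2000. The hypoxia share was 98.1% at resolution 1, 86.5% at 500 UMIs and 84.0% without the Ntrk2-led cluster. Cd74 among cells with H2-Aa was 53.8% at 500 and 81.9% at 2000 UMIs in normoxia and 88.2% at 500 in hypoxia. No aCap-like class formed at resolution 1. Apart from thinning, where fewer UMIs hold fewer transcripts, the cause was not tested. The Ntrk2-led, Ifit1-led and highest-cell alternatives were chosen after seeing the data. With 1 library each, spread between animals limits every comparison, and the 40 aCap-like hypoxia cells limit theirs.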
